A study of Mus musculus with 30 samples.

Results

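Astrocytes were compared 3 days after middle cerebral artery occlusion (MCAO), a model of stroke in which a brain artery is blocked for 1 hour and then reopened, and 3 days after sham surgery without occlusion. These were the 6 arrays whose labels give day 3, 3 per surgery, of 30 arrays in 8 groups in the series. All mice were young adult males of the line Tg(Aldh1l1-eGFP) OFC789Gsat on a Swiss Webster background, in which the promoter of Aldh1l1, an astrocyte gene of folate metabolism, drives green fluorescent protein. Brain cells were freed with papain and sorted for the fluorescence, so MCAO and sham cells carry the same transgene and passed the same sort, and cells other than astrocytes that use this promoter or carry its signal would pass too. About 20 ng of total RNA per sample was amplified in 2 cycles and hybridised to a whole-genome Affymetrix mouse array. The 3 arrays of a group are labelled as biological replicates. Whether they came from different mice is not given. The scatter within groups that the tests use, pooled over the 8 groups, may therefore be technical.

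Astrocytes supply neurons with metabolites, clear glutamate and potassium, and wrap synapses and vessels. After ischaemia they become reactive, which involves larger cell bodies, more intermediate filaments, secretion of acute-phase and matrix proteins and, near the lesion, renewed division of some cells. Borders formed by such cells around the damaged tissue build up over days, so the 3-day samples fall between the acute response and later scar formation.

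The sorted cells carried the astrocyte programme in both groups. Aldh1l1, which marks the sort, had log2 intensities of 12.61, 12.71 and 12.96 on MCAO arrays 1 to 3 and of 12.47, 12.52 and 13.19 on sham arrays 1 to 3. Its log2 fold was 0.03 ± 0.38 (SE), and it was not called (limma, adjusted p = 0.999). Over 10 astrocyte markers the summed intensity ran from 89580 to 130183 on MCAO arrays and from 94721 to 134964 on sham arrays. Other cell types are set out further down, since oligodendrocyte markers differed between the arrays.

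Array 3 of either group stood apart from arrays 1 and 2 of its own group. Across 15726 genes sham arrays 1 and 2 correlated with r = 0.991 and MCAO arrays 1 and 2 with 0.974, whereas MCAO array 3 correlated best with sham array 3 (0.983) and with MCAO arrays 1 and 2 at 0.946 and 0.949. Sham array 3 correlated with sham arrays 1 and 2 at 0.971 and 0.975. These are correlations across genes, which are not independent replicates. The share of genes at a log2 intensity of 12 or more was 3.20 to 3.97% on arrays 1 and 2 of both groups and 4.89 and 5.03% on array 3 of MCAO and sham, inside the range of 3.20 to 5.71% over all 30 arrays. Arrays of 1-day MCAO and sham had 4.48 to 5.31%, a range that holds both array 3 values, and 7-day arrays 3.38 to 3.75%. Labels name no batch, and what sets the 2 arrays apart was not tested, nor was its part in the comparisons between days. The main genes are therefore given on every array, and the programme lists mostly with and without array 3 of both groups.

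Calls were made in limma with 1 model over the 8 groups, so that SE and p rest on a variance pooled over 30 arrays, and the threshold was an adjusted p (Benjamini-Hochberg) under 0.05 over the 15726 genes. Called were 106 genes (0.674% of those tested), 96 of them higher (0.610%) and 10 lower (0.0636%) after MCAO. Of the 96, 87 rose at least 2-fold, 32 at least 4-fold and 9 at least 8-fold, while 7 of the 10 falls reached 2-fold. The smallest adjusted p was 0.000802. Fitted on the 6 arrays alone, limma called 0 genes (1451 at an unadjusted p under 0.05, smallest adjusted p = 0.437), so every call below depends on the pooled variance. For a single gene an exact 2-sided permutation test of 3 against 3 arrays cannot go below p = 0.1.

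Calls also moved with single arrays. Without array 3 of both groups 632 of the 15726 genes were called, 483 higher and 149 lower, and 105 of the 106 were among them. List members called without array 3 of both groups, given below, are to be read against these counts. The share of 0.610% belongs to the main fit. When MCAO array 1, 2 or 3 was left out, 15, 9 and 650 genes were called, and when sham array 1, 2 or 3 was left out, 4, 3 and 314. Over the 96 genes called higher, MCAO array 3 lay at a median of 59.1% of the way from the mean of sham arrays 1 and 2 to the mean of MCAO arrays 1 and 2 (quartiles 39.4 and 76.4%), and sham array 3 at 43.5% (24.9 and 55.9%). In 79 of the 96 the 3 MCAO arrays lay above all 3 sham arrays, as in 5.74% of all genes, and all 10 falls were without overlap the other way, as in 6.94%. The calls used these same arrays, so the positions and counts only describe the called genes and are no independent evidence.

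**Figure D1:**
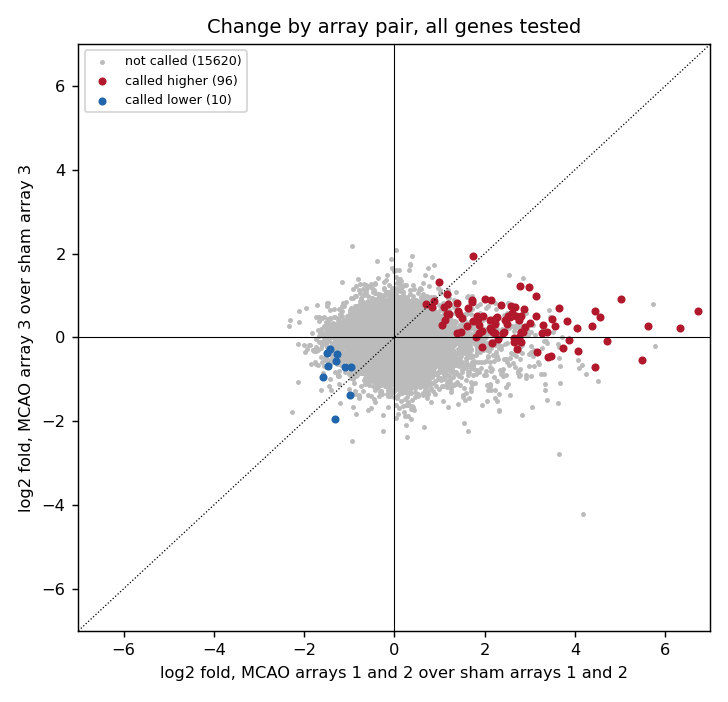
Log2 fold of MCAO over sham for all 15726 genes tested, from arrays 1 and 2 of each group (x axis) and from array 3 of each group (y axis); red, 96 genes called higher, blue, 10 called lower, grey, not called, dotted line, equal change. Of the 96 red points most have a smaller difference in array 3 than in arrays 1 and 2, while Dscc1 (1.74 in arrays 1 and 2, 1.94 in array 3) and Sec16b (0.99 and 1.31) do not. Over all genes 852 were at least 2-fold up in arrays 1 and 2, and 118 in array 3. At least 2-fold down were 415 in arrays 1 and 2, and 287 in array 3.

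The largest rises were those of Lcn2, Tgm1, Timp1 and S100a10. Lcn2, which encodes lipocalin-2, an acute-phase protein that binds bacterial iron carriers, had 11.07, 12.36 and 10.33 on MCAO arrays 1 to 3 and 5.04, 4.95 and 9.70 on sham arrays 1 to 3. All MCAO arrays lay above the sham arrays, but sham array 3 lay only 0.62 below MCAO array 3. Lcn2 rose 25.7-fold (log2 4.68 ± 0.83 SE, adjusted p = 0.00893). The log2 SD of its 3 arrays was 1.03 after MCAO and 2.71 after sham. The SE of 0.83 comes from the variance pooled over all groups and understates this scatter. Fitted on the 3-day arrays alone, limma gave Lcn2 an adjusted p of 0.437. In a sorted population more cells of a type and more RNA per cell cannot be told apart, nor, for a fall, fewer cells and less RNA per cell. Timp1, an inhibitor of matrix metalloproteinases, had 11.01, 12.24 and 9.11 against 6.11, 5.91 and 8.84, again without overlap, and rose 14.3-fold (log2 3.83 ± 0.72, adjusted p = 0.0117).

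Serpina3n, a secreted serine protease inhibitor, and Hspb1, a small heat shock protein that binds filaments, completed the called pan-reactive genes. Serpina3n had 12.60, 12.92 and 11.20 after MCAO and 10.21, 9.70 and 11.32 after sham, so sham array 3 lay above MCAO array 3, and it rose by log2 1.83 ± 0.41 (adjusted p = 0.0327). Hspb1 had 10.71, 13.40 and 10.91 against 8.33, 8.50 and 10.21 and rose by log2 2.66 ± 0.64 (adjusted p = 0.0443), with MCAO array 2 far above the rest.

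Gfap and Vim, which encode the main intermediate filaments of reactive astrocytes, were not called. Gfap had 13.51, 13.72 and 12.72 after MCAO and 11.09, 10.84 and 12.56 after sham, which did not overlap (log2 fold 1.82 ± 0.49, adjusted p = 0.083). Vim had 13.70, 14.13 and 13.58 against 10.49, 10.57 and 13.71, with sham array 3 inside the MCAO range (2.22 ± 0.60, adjusted p = 0.0879). Both were thus near the MCAO level on sham array 3.

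Of 13 pan-reactive genes 4 were called higher (0.610% of all genes). An unadjusted p under 0.05 was seen in 11 (5.56% of all genes, higher), and all 13 had a positive fold (51.8% of all genes). Their median log2 fold was 2.09, against 0.01 over all genes. Without array 3 of both groups 9 were called and the median was 3.26, while array 3 alone gave -0.11. The study chose this list and the MCAO-type and LPS-type lists on these samples, so their direction is no independent evidence.

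**Figure D2:**
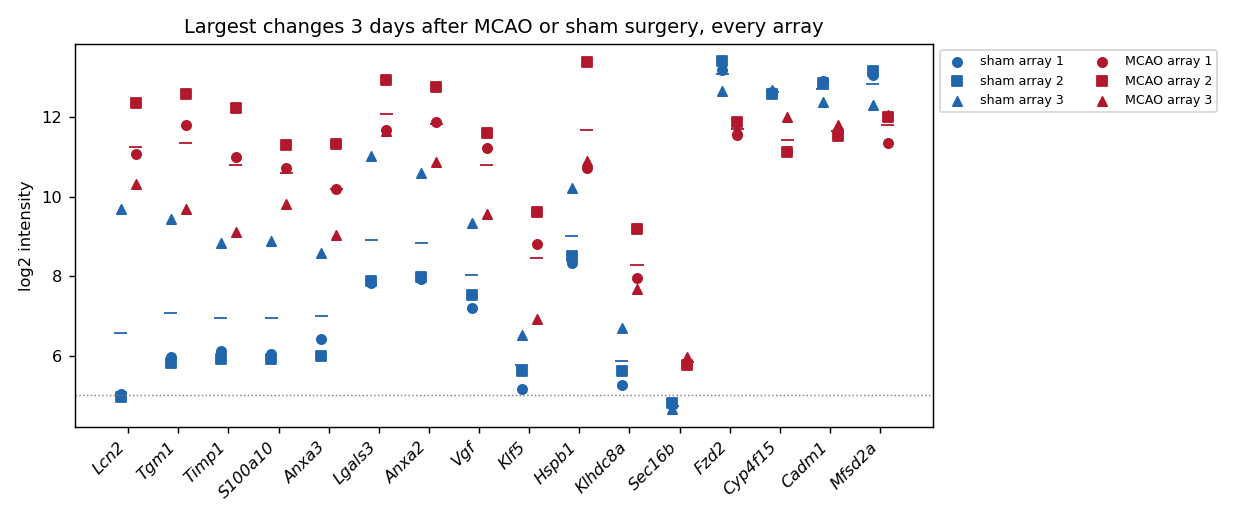
Log2 intensity on each of the 6 arrays for 12 genes that rose and 4 that fell at 3 days (red, MCAO; blue, sham; circles, squares and triangles, arrays 1, 2 and 3; short lines, group means; dotted line, the floor of log2 5 used to filter genes). Sham triangles sit well above the other sham points in most rises, at 9.70 for Lcn2 against 5.04 and 4.95, but not in Sec16b at 4.64.

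MCAO-type reactive genes held 5 called members of 12, all higher (0.610% of all genes), with a median log2 fold of 2.48. Tgm1, a transglutaminase that crosslinks proteins, had 11.81, 12.59 and 9.68 after MCAO and 5.95, 5.81 and 9.45 after sham and rose 19.6-fold (log2 4.29 ± 0.81, adjusted p = 0.0117). S100a10, the partner of annexin A2 at the membrane, had 10.71, 11.30 and 9.81 against 6.04, 5.91 and 8.89 and rose 12.6-fold (3.66 ± 0.59, adjusted p = 0.00355). Neither gene overlapped between groups, and S100a10 kept its call in 4 of the 6 fits that leave out 1 array.

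The other 3 called members overlapped through array 3. Tm4sf1, a tetraspanin-like surface protein, had 11.80, 12.35 and 9.81 against 7.80, 6.92 and 9.89 (log2 fold 3.12 ± 0.75, adjusted p = 0.0462). Cd109, a surface protein that dampens TGF-beta signalling, had 10.31, 10.77 and 7.33 against 6.02, 6.19 and 8.03 (2.72 ± 0.62, adjusted p = 0.0346). Clcf1, a cytokine of the interleukin-6 family, had 8.74, 9.26 and 5.93 against 4.91, 4.95 and 6.27 (2.60 ± 0.54, adjusted p = 0.0205). In each of them sham array 3 lay above MCAO array 3. The list had 9 called members and a median of 3.86 without array 3 of both groups, and a median of -0.45 in array 3 alone. With the mean of a gene's probe sets the median of the 12 was 1.63, with 5 called.

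LPS-type reactive genes, which the study tied to inflammation, had 0 of 9 called and 3 at an unadjusted p under 0.05 in limma, with a median log2 fold of 1.01. Gbp2, an interferon-induced GTPase, had 8.78, 11.16 and 8.83 against 6.73, 6.32 and 8.35 (log2 fold 2.45 ± 0.81, adjusted p = 0.195). Serping1, the inhibitor of complement C1, had 10.36, 11.57 and 10.03 against 8.10, 7.80 and 9.89 (2.06 ± 0.64, adjusted p = 0.157). Both were without overlap, as 3 of the 9 were (5.74% of all genes). With array 3 of both groups left out, 3 of the 9 were called and the median was 1.57, and in array 3 alone it was -0.08.

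Annexins, S100 proteins and galectins, which link calcium signals and sugars to membranes, held 5 called of 19, all higher (0.610% of all genes). Anxa2, which bundles membranes and actin, had 11.88, 12.77 and 10.86 after MCAO and 7.92, 7.99 and 10.58 after sham and rose 8.03-fold (log2 3.01 ± 0.62, adjusted p = 0.0195), or by log2 1.21 with the mean of its probe sets (adjusted p = 0.0202). Anxa3 had 10.19, 11.33 and 9.04 against 6.43, 5.98 and 8.57 and rose 9.17-fold (3.20 ± 0.64, adjusted p = 0.0169). S100a10, given above, forms a complex with the product of Anxa2, and both partners were among the calls without overlap.

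Lgals3, which encodes the sugar-binding galectin-3, had 11.67, 12.95 and 11.66 after MCAO and 7.83, 7.89 and 11.04 after sham and rose 9.03-fold (3.17 ± 0.73, adjusted p = 0.0359). S100a3 had 6.43, 7.33 and 6.09 against 4.91, 4.91 and 5.58 (1.48 ± 0.35, adjusted p = 0.0389). Values within the family were uneven: Anxa5, S100b and S100a1 had log2 folds of 0.12, -0.35 and -0.05, with adjusted p of 0.999, 0.798 and 0.999. The median over the 19 was 1.22, with 16 positive folds (51.8% of all genes) and 8 members without overlap (5.74%). With the mean of a gene's probe sets it was 0.75. It was 1.97 without array 3 of both groups, with 12 called, and 0.14 in array 3 alone.

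Actin, tubulin and intermediate filament genes held 6 called of 37, all higher (0.610% of all genes). Their median log2 fold was 0.74, with 35 positive folds (51.8% of all genes). Tagln, which encodes the actin-binding transgelin, had 8.99, 10.80 and 7.67 after MCAO and 6.29, 6.39 and 7.39 after sham (log2 fold 2.46 ± 0.48, adjusted p = 0.0147). Capg, an actin-capping protein, had 9.22, 10.34 and 7.59 against 6.41, 6.38 and 7.47 (2.30 ± 0.51, adjusted p = 0.0327). Flnc, which encodes the actin crosslinker filamin C, had 9.05, 10.59 and 8.74 against 7.07, 7.21 and 8.03 (2.03 ± 0.39, adjusted p = 0.0147). These 3 had no overlap, and MCAO array 2 was the highest in each.

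Overlap through array 3 was seen in the other 3 called members. Tubb6, a beta-tubulin, had 10.28, 11.02 and 9.31 against 6.67, 7.17 and 9.56 (2.40 ± 0.54, adjusted p = 0.0346). Tagln2 rose by log2 1.98 ± 0.47 (adjusted p = 0.0405). Nes, which encodes the progenitor filament nestin, had 9.79, 10.52 and 9.09 against 7.74, 7.99 and 9.14 and rose by log2 1.51 ± 0.34 (adjusted p = 0.0327). With the mean of a gene's probe sets in place of the brightest one, Tubb6 and Nes had log2 folds of 1.16 and 1.31 and were not called (adjusted p = 0.0597 and 0.0548). By that measure Capg had 1.46 (adjusted p = 0.0128). Flnc had 1.32 without probe sets shared between transcripts (adjusted p = 0.0342). The bulk cytoskeletal genes Actb and Actg1 had log2 folds of 0.12 and 0.18 (adjusted p = 0.986 and 0.957). The list had 16 called members and a median of 1.25 without array 3 of both groups, and a median of -0.02 in array 3 alone.

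Genes of mitosis made up the largest group of calls, with 14 of 64 higher (0.610% of all genes) and 0 lower. Cells that commit to division first switch on G1 regulators, then the replication machinery, and last the genes of spindle assembly and cytokinesis, many of which share a promoter layout of CCAAT boxes, bound by NF-Y, and a CHR element, bound by the DREAM and MuvB complexes. Spc25, part of the NDC80 complex that ties kinetochores to microtubules, had 10.10, 8.99 and 8.97 after MCAO and 6.30, 6.82 and 7.78 after sham. It rose 5.22-fold (log2 2.39 ± 0.34, adjusted p = 0.00107) without overlap, and it was 1 of 3 genes that kept their call in all 6 fits that leave out 1 array. With the mean of its probe sets the log2 fold was 1.20 (adjusted p = 0.0154). Promoters of 4 called genes are printed as the 250 bases before the start site, from RefSeq on GRCm38.p6, to show this layout. Capitals mark CCAAT or its complement ATTGG and the CHR letters TTTGAA or TTCAAA, and neighbouring matches can run together. Cdc20 is read from the minus strand of chr4:118437344-118437593, Cdk1 from the minus strand of chr10:69352913-69353162, Ube2c from the plus strand of chr2:164769679-164769928 and Spc25 from the minus strand of chr2:69206214-69206463.
Cdc20: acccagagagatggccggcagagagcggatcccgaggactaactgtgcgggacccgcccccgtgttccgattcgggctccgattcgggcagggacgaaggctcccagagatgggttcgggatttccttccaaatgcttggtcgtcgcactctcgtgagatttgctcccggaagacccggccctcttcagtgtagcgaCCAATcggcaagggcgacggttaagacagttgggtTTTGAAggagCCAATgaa
Cdk1: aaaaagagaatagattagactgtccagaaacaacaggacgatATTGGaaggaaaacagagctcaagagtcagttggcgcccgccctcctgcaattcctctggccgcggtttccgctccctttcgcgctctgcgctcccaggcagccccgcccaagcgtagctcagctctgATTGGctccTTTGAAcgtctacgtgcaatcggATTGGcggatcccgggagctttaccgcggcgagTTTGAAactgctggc
Ube2c: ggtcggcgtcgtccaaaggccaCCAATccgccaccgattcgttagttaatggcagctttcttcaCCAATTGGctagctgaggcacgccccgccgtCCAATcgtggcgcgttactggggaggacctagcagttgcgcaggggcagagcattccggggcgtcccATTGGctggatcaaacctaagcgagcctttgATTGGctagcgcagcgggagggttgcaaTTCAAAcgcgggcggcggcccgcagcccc
Spc25: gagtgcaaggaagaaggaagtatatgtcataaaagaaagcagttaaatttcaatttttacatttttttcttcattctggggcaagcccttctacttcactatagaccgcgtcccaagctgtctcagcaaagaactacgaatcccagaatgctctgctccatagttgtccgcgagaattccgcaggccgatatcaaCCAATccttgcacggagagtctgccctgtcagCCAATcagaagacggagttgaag

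CCAAT was found on either strand in 13 of the 14 called mitosis promoters (92.9%) and in 4966 of 12562 promoters of tested genes (39.5%). The CHR letters were found in 7 of 14 (50%) against 13.1%, and both together in 7 of 14 (50%) against 5.71%. Over the 54 mitosis genes with a promoter in the table the shares were 74.1% for CCAAT, 38.9% for the CHR letters and 35.2% for both, so the layout was also frequent over the whole list. Spc25 held CCAAT 2 times and no CHR letters. A match is a description of letters in this window.

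Regulators of entry into and exit from mitosis came next. Cdk1, the kinase that drives entry, had 9.97, 9.65 and 7.73 after MCAO and 6.07, 6.74 and 8.19 after sham, with array 3 turned the other way (log2 fold 2.12 ± 0.49, adjusted p = 0.0389). Cdc20, which activates the anaphase-promoting complex, had 10.87, 10.20 and 9.30 against 6.89, 7.63 and 9.19 without overlap (2.22 ± 0.52, adjusted p = 0.0411). It was not called when probe sets shared between transcripts were left out (1.77, adjusted p = 0.0662). Ube2c, which supplies that complex with ubiquitin, had 8.25, 8.18 and 7.83 against 4.86, 5.78 and 7.58 (2.01 ± 0.45, adjusted p = 0.0335), and Bub1, a kinase of the spindle checkpoint, 8.08, 7.35 and 6.67 against 4.70, 5.04 and 6.55 (1.93 ± 0.45, adjusted p = 0.0373). On array 3 these last 2 genes differed by only 0.26 and 0.12.

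Genes of the spindle and of cytokinesis rose as well. Hmmr, a spindle-associated hyaluronan receptor, had 9.09, 7.98 and 6.38 against 5.36, 5.46 and 5.86 (2.26 ± 0.37, adjusted p = 0.00355). Prc1, which bundles microtubules of the central spindle, had 10.06, 9.69 and 8.81 against 7.10, 7.53 and 8.31 (1.87 ± 0.30, adjusted p = 0.00355). Ect2, which directs the contractile ring, had 8.24, 7.89 and 7.50 against 4.75, 4.81 and 7.21 (2.29 ± 0.44, adjusted p = 0.0132). None of these 3 overlapped, and MCAO array 1 was the highest in each. Ckap2, Cdca3, Birc5, Kif22, Ttk and Kif4 rose by 0.89 to 1.85 (log2). Birc5 was lower on MCAO array 3 (7.43) than on sham array 3 (7.72). Without shared probe sets Kif22 had a log2 fold of 0.48 against 1.59 and was not called (adjusted p = 0.694). Ttk kept its fold of 1.21 there while its adjusted p went from 0.0491 to 0.0503, and with the mean of its probe sets it had 0.66 (adjusted p = 0.0848). By that mean Hmmr had 1.16, Bub1 1.03 and Cdca3 0.65, all called (adjusted p = 0.00249, 0.0376 and 0.0440).

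**Figure D3:**
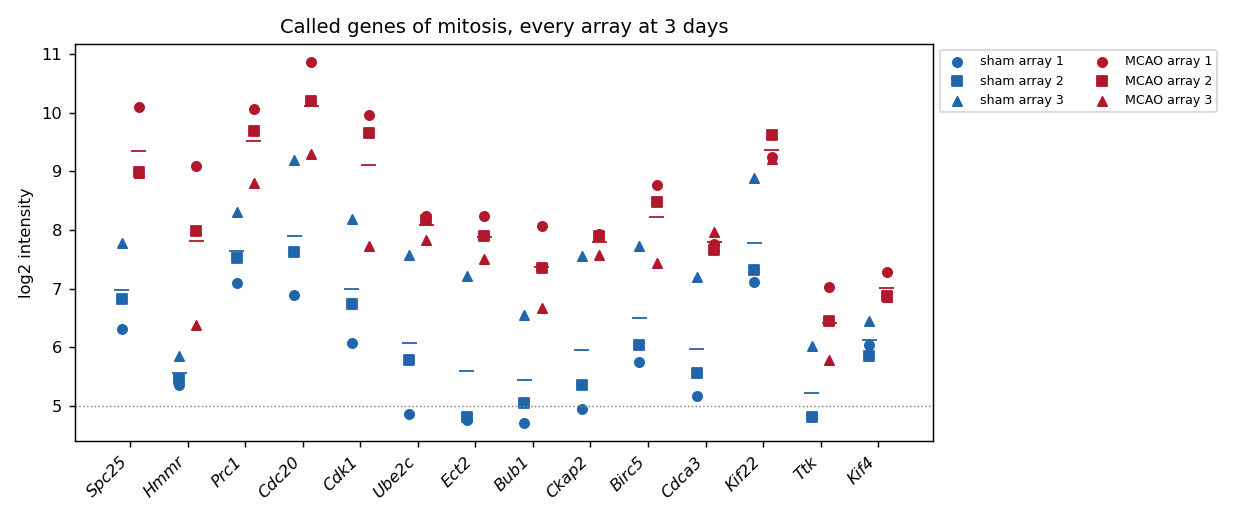
Log2 intensity on each array for the 14 called genes of mitosis (red, MCAO; blue, sham; circles, squares and triangles, arrays 1, 2 and 3; short lines, group means; dotted line, floor of log2 5). Arrays 1 and 2 of the groups are far apart in every gene, while sham array 3 reaches 8.19 against 7.73 on MCAO array 3 for Cdk1 and stays below it for Spc25 (7.78 against 8.97).

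Over the 64 mitosis genes the median log2 fold was 1.18, with 62 positive folds (51.8% of all genes), 44 members at an unadjusted p under 0.05 in the higher direction (5.56%) and 16 without overlap (5.74%). Mki67, the usual marker of cycling cells, had 10.25, 9.55 and 9.96 against 6.86, 7.31 and 10.13 (1.82 ± 0.66, adjusted p = 0.256), so sham array 3 was at the MCAO level. Without array 3 of both groups 43 of 64 were called, against 632 of all 15726 genes. The median was 1.98 there and -0.29 in array 3 alone. Mean levels of the list were 8.57, 8.20 and 7.49 on MCAO arrays 1 to 3 and 6.36, 6.62 and 7.73 on sham arrays 1 to 3. Sham array 3 thus lay above MCAO array 3.

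Replication genes had 0 of 36 called, with 21 at an unadjusted p under 0.05, all higher (5.56% of all genes). Positive folds numbered 33 (51.8% of all genes), and the median log2 fold was 0.83. Rrm2, the ribonucleotide reductase subunit that limits nucleotide supply, had 11.31, 10.62 and 9.91 against 7.03, 7.47 and 9.91 (2.48 ± 0.61, adjusted p = 0.0536). Mcm5, part of the replicative helicase, had 9.68, 9.12 and 9.29 against 6.46, 6.92 and 8.94 without overlap (1.93 ± 0.51, adjusted p = 0.0804), and was named after its values were seen. Cdt1, which licenses origins, had a log2 fold of 1.93 ± 0.61 (adjusted p = 0.169). Without array 3 of both groups 19 of the 36 were called, at a median of 1.37.

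G1 regulators had the smallest median of the 3 cell cycle lists. The list mixes drivers and inhibitors of the cycle, so its median is no measure of that step. Of 22 members 0 were called and 6 had an unadjusted p under 0.05, with a median log2 fold of 0.36. Ccnd1, which encodes cyclin D1, had 11.61, 11.04 and 8.08 against 7.16, 7.33 and 8.80 (2.48 ± 0.73, adjusted p = 0.13). Cdkn1a, the inhibitor p21, had 11.10, 11.58 and 9.63 against 9.15, 9.32 and 9.53 (1.44 ± 0.57, adjusted p = 0.334). Arrays 1 and 2 alone gave 4 called of the 22, against 632 of all 15726 genes. The median was 0.78 there and -0.06 in array 3 alone. The difference between the lists was not tested.

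Called genes outside the lists include 12 with known roles in division, DNA replication or repair, picked after their values were seen. They are Trip13, Shcbp1, Sgo2a, Cdkn3, Cenpm, Depdc1b, Ercc6l, Clspn, Dscc1, Asf1b, Fignl1 and Tcf19. Trip13, which remodels checkpoint proteins, had 7.99, 8.18 and 7.85 against 5.04, 5.55 and 6.63 (2.26 ± 0.45, adjusted p = 0.0169), and had 0.74 without shared probe sets, where it was not called (adjusted p = 0.0815), and 1.00 with the mean of its probe sets (adjusted p = 0.0113). Dscc1, which helps load the replication clamp, had 6.46, 5.86 and 7.37 against 4.25, 4.58 and 5.43 (1.81 ± 0.30, adjusted p = 0.00447). In Dscc1 the difference on array 3 (1.94) was as large as on arrays 1 and 2 (1.74). The mean of its probe sets gave 0.99 (adjusted p = 0.00721).

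Of 22 growth factors and receptors 3 were called higher (0.610% of all genes), all ligands or binding proteins. Vgf, a precursor of secreted neuropeptides, had 11.21, 11.60 and 9.56 against 7.19, 7.52 and 9.34 (log2 fold 2.77 ± 0.63, adjusted p = 0.0346). Igfbp3, which binds insulin-like growth factors, had 10.73, 11.21 and 6.57 against 5.43, 5.52 and 7.11 (3.48 ± 0.81, adjusted p = 0.0389), and its rise was carried by MCAO arrays 1 and 2 alone. Ereg, the ligand epiregulin, had 5.73, 6.25 and 4.32 against 4.09, 4 and 4.17 (1.35 ± 0.31, adjusted p = 0.0352), with 4 of 6 arrays under the log2 floor of 5. Arrays 1 and 2 alone gave 4 called of the 22, against 632 of all 15726 genes. The median was 0.25 there and -0.13 in array 3 alone.

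Interleukin-6 family and STAT3 genes had 1 of 18 called, Clcf1, and 7 at an unadjusted p under 0.05 in the higher direction (median 0.66). The cytokine Il6 had 5.86, 8.22 and 6.30 against 4.46, 4.52 and 4.81 without overlap (2.20 ± 0.68, adjusted p = 0.156). The receptor Osmr had 10.82, 11.78 and 9.46 against 8.13, 7.94 and 9.72 (2.09 ± 0.75, adjusted p = 0.248). Socs3, a feedback inhibitor and target of the pathway, had 10.93, 11.51 and 10.75 against 8.71, 9.17 and 10.41 without overlap (1.63 ± 0.52, adjusted p = 0.171). These 3 genes had positive folds that did not pass the threshold, and were picked with their values known. Of the 18 members 6 had a negative fold, and 1 had an unadjusted p under 0.05 in the lower direction. The list median was 0.38 with the mean of a gene's probe sets. In arrays 1 and 2 alone 4 were called higher and 1 lower at a median of 1.29, and in array 3 alone the median was -0.23.

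Cytokines and chemokines had 0 of 23 called and 7 at an unadjusted p under 0.05 in the higher direction, with a median of 0.15. Cxcl2, a neutrophil attractant, had 8.75, 11.39 and 5.61 against 5.39, 6.29 and 6.49 (2.53 ± 1.12, adjusted p = 0.436). Cxcl10, a T cell attractant, had 9.10, 11.48 and 9.58 against 7.06, 6.94 and 9.39 (2.25 ± 0.95, adjusted p = 0.398). MCAO array 2 was the highest for both, and Cxcl2 spread over 5.61 to 11.39 within the MCAO group.

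Regulators of transcription among the calls included Klf5, Fosl1 and Hmga2. Klf5, a Kruppel-like factor of proliferating cells, had 8.82, 9.62 and 6.92 against 5.17, 5.61 and 6.52 (2.68 ± 0.61, adjusted p = 0.0346) and was the only one called of 13 in its family. Averaged over their probe sets, Klf5 had 0.99 (adjusted p = 0.0579), Fosl1 1.19 (adjusted p = 0.0398) and Hmga2 1.62 (adjusted p = 0.0293). Fosl1, the AP-1 subunit Fra-1, had 7.94, 9.05 and 6.74 against 5.78, 5.46 and 6.07 without overlap (2.14 ± 0.37, adjusted p = 0.00665), 1 of 18 called in its list. Hmga2, a chromatin protein of growing cells that stands in no list, had 8.80, 8.63 and 5.32 against 4.64, 5.04 and 5.39 (2.56 ± 0.52, adjusted p = 0.0169). The AP-1 letters TGANTCA, with N any base, were found in 8 of 74 promoters of genes called higher (10.8%) and in 6.09% of all promoters of tested genes. They were found in 0 of 14 promoters of called mitosis genes and 0 of 6 of called pan-reactive and MCAO-type genes. Whether AP-1 acts on any of these genes was not tested.

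Stress programmes held few calls. Of 17 oxidative stress genes and metallothioneins 1 was called, Gpx1, the selenium enzyme that reduces peroxides, with 12.09, 12.55 and 11.76 against 9.77, 9.89 and 11.45 (1.76 ± 0.42, adjusted p = 0.0426). Of 25 heat shock and unfolded protein response genes 1 was called, Hspb1, with a list median of 0.39 (0.18 with the mean of a gene's probe sets). Without overlap were 8 members higher (5.74% of all genes) and 1 lower (6.94%). Glycolysis and hypoxia genes had 0 of 23 called and 3 at an unadjusted p under 0.05 each way (median 0.04), and glucocorticoid-responsive genes 0 of 14 and 1 (median 0.02). Constitutive proteasome subunits had 0 of 31 called and 1 at an unadjusted p under 0.05, at a median of 0.22. Outside the lists Tspo, the mitochondrial outer membrane protein traced in imaging of gliosis, had 10.33, 11.02 and 9.85 against 8.67, 8.47 and 9.43 and rose by log2 1.54 ± 0.32 (adjusted p = 0.022). It was named after its values were seen.

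Interferon-stimulated genes had positive folds throughout but no call. Of 29 members 0 were called and 14 had an unadjusted p under 0.05, all higher (5.56% of all genes). Without overlap were 8, higher (5.74%), and all 29 had a positive fold (51.8%), with a median log2 fold of 1.04. Usp18, which removes the ubiquitin-like ISG15 and damps the interferon receptor, had 8.07, 9.44 and 8.86 against 5.32, 5.36 and 8.20 (2.50 ± 0.84, adjusted p = 0.202). Psmb8, an immunoproteasome subunit of the class I pathway, had 7.83, 9.69 and 7.64 against 5.93, 6.25 and 7.40 (1.86 ± 0.58, adjusted p = 0.157). MHC class I genes had 0 of 13 called and 3 at an unadjusted p under 0.05, at a median of 0.58. Without array 3 of both groups 8 of 29 interferon-stimulated genes and 1 of 13 MHC genes were called, against 632 of all 15726. Medians in array 3 alone were 0.08 and 0.15.

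Complement genes were split, with 1 of 8 called lower. Masp1, a protease of the lectin pathway, had 9.06, 9.35 and 9.43 after MCAO and 10.53, 10.86 and 9.80 after sham (-1.11 ± 0.27, adjusted p = 0.0463). This call rested on 1 probe set: averaging all its probe sets gave a log2 fold of -0.48 (adjusted p = 0.277), and dropping those shared between transcripts gave 0.20 (adjusted p = 0.988). Matrix and proteolysis genes had 1 of 46 called, Timp1, with 10 at an unadjusted p under 0.05 in the higher direction and a median of 0.42. In arrays 1 and 2 alone 8 of the 46 were called, at a median of 0.70, and in array 3 alone the median was -0.14.

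Called falls were fewer and smaller than called rises, the largest being 2.88-fold in 1700012D14Rik. Fzd2, a Wnt receptor, had 11.55, 11.88 and 11.71 after MCAO and 13.19, 13.41 and 12.65 after sham and fell 2.58-fold (log2 fold -1.37 ± 0.30, adjusted p = 0.0327). Cyp4f15, a cytochrome P450 of fatty acid and eicosanoid metabolism, had 11.16, 11.12 and 12 against 12.63, 12.58 and 12.68 and fell 2.30-fold (-1.20 ± 0.26, adjusted p = 0.0247). Cadm1, an adhesion molecule of synapses and glia, had 11.65, 11.53 and 11.81 against 12.90, 12.86 and 12.37 (-1.05 ± 0.19, adjusted p = 0.00955). All 3 MCAO arrays lay below all 3 sham arrays in each of them, and array 3 kept the direction.

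Mfsd2a, a carrier of lysophosphatidylcholine, had 11.34, 12.01 and 12.05 against 13.06, 13.15 and 12.31 (-1.04 ± 0.23, adjusted p = 0.0346). Ctsf, which encodes the lysosomal protease cathepsin F, had 10.70, 10.85 and 11.55 against 11.96, 12.14 and 11.95 (-0.99 ± 0.23, adjusted p = 0.0373). Tlr3, the receptor for double-stranded RNA, had 10.73, 10.39 and 10.97 against 11.77, 11.54 and 11.68 (-0.97 ± 0.23, adjusted p = 0.0427). Alg2, a mannosyltransferase of N-glycan assembly, fell by log2 0.88 ± 0.20 (adjusted p = 0.0359). With the mean of their probe sets Ctsf, Tlr3 and Alg2 had log2 folds of -0.57, -1.07 and -0.45 and were not called (adjusted p = 0.0815, 0.309 and 0.309). Without shared probe sets Tlr3 had -1.16 and was not called (adjusted p = 0.78). The unnamed transcripts 1700012D14Rik and D030055H07Rik had log2 folds of -1.53 ± 0.29 (adjusted p = 0.0128) and -1.11 ± 0.25 (adjusted p = 0.0346), the first of them -0.81 with the mean of its probe sets (adjusted p = 0.0376).

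Resting astrocyte functions had 2 of 43 called lower, Fzd2 and Cyp4f15, against 0.0636% of all genes, and 0 higher. An unadjusted p under 0.05 in the lower direction was seen in 10 members (3.97% of all genes), 38 of 43 folds were negative and the median was -0.34. Grin2c, an NMDA receptor subunit of astrocytes, had 11.26, 10.81 and 12.95 against 12.94, 12.86 and 13.14 (-1.31 ± 0.40, adjusted p = 0.152). Core transport genes had small folds: Slc1a2, the main glutamate transporter, had -0.14 ± 0.22 (adjusted p = 0.995), and the water channel Aqp4 had -0.19 ± 0.40 (adjusted p = 0.999). Without array 3 of both groups 6 were called lower, at a median of -0.45.

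Cholesterol synthesis, which astrocytes run for neurons as well, had 0 of 19 called and 4 at an unadjusted p under 0.05, all lower, with 18 of 19 folds negative and a median of -0.43. Msmo1 and Dhcr7, late enzymes of the pathway, had -0.88 ± 0.51 (adjusted p = 0.669) and -0.82 ± 0.33 (adjusted p = 0.352). Msmo1 had 12.21, 12.11 and 13.06 against 13.20, 13.25 and 13.57, so array 3 was the highest in both groups. Synapse formation and phagocytosis genes had 0 of 18 called and 2 at an unadjusted p under 0.05 each way. Among them the engulfment receptor Mertk had 11.66, 11.61 and 12.47 against 12.97, 13.04 and 12.60 without overlap (-0.96 ± 0.23, adjusted p = 0.0522), and was named after its values were seen.

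**Figure D4:**
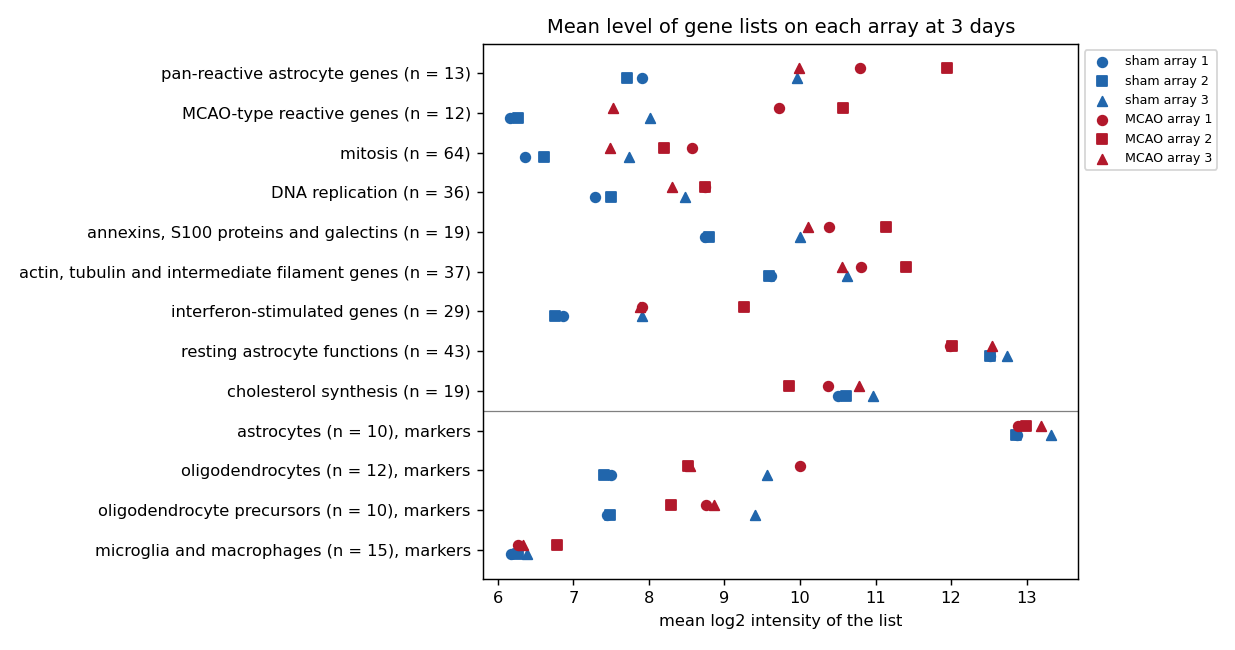
Mean log2 intensity of 9 programme lists and 4 marker lists on each array at 3 days (red, MCAO; blue, sham; circles, squares and triangles, arrays 1, 2 and 3; n, genes tested). For pan-reactive genes sham arrays 1 and 2 sit at 7.90 and 7.71 and MCAO arrays 1 and 2 at 10.80 and 11.95, while array 3 is at 9.96 for sham and 9.98 for MCAO.

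In Sec16b, as in Dscc1, the difference on array 3 was no smaller than on arrays 1 and 2 (1.31 against 0.99). Sec16b, which encodes a protein of endoplasmic reticulum exit sites, had 5.78, 5.75 and 5.95 after MCAO and 4.75, 4.81 and 4.64 after sham, with all sham arrays under the floor of 5 and tight groups. It had the smallest adjusted p (log2 fold 1.09 ± 0.15, adjusted p = 0.000802). Klhdc8a, a kelch-repeat protein, had 7.95, 9.17 and 7.69 against 5.25, 5.61 and 6.70 (2.42 ± 0.36, adjusted p = 0.00187), and 1.45 with the mean of its probe sets (adjusted p = 0.00721). Sec16b, Klhdc8a and Spc25 were the 3 genes called in all 6 fits that leave out 1 array, and 5 others, S100a10, Hmmr, Prc1, Dscc1 and Cdkn3, were called in 4. Array 3 still differed less than arrays 1 and 2 in Klhdc8a (0.99 against 3.13), Spc25 (1.19 against 2.98), S100a10 (0.92 against 5.03) and Hmmr (0.52 against 3.13). Of the remaining calls 7 held in 3 of these fits, 88 in 2 and 3 in 1.

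Markers of other cells were read beside these groups. Of 12 oligodendrocyte markers 0 were called, 1 had an unadjusted p under 0.05 and 10 had a positive fold (median 0.93). Their summed intensity ran from 18676 to 27084 on MCAO arrays and from 12515 to 28813 on sham arrays, the highest being sham array 3. Cldn11, a myelin claudin, had 9.86, 7.44 and 8.08 against 5.36, 5.58 and 8.66 (1.93 ± 1.07, adjusted p = 0.645). The median over the 12 was 1.86 in arrays 1 and 2 and -0.72 in array 3, so sham array 3 stood above sham arrays 1 and 2 here as in the mitosis and reactive lists, and the part of these cells in those results was not tested.

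Oligodendrocyte precursors, a dividing cell type of the adult brain, showed the same lift of sham array 3. Of 10 markers 0 were called and 3 had an unadjusted p under 0.05 (median 0.50, 0.86 in arrays 1 and 2 and -0.34 in array 3). Summed intensity ran from 7348 to 10520 after MCAO and from 3832 to 14741 after sham. Pdgfra, their defining receptor, had 10.30, 10.12 and 10.96 against 7.35, 6.60 and 11.82 (1.87 ± 0.88, adjusted p = 0.495), with sham array 3 the highest of all. Whether these cells carry any of the mitosis signal was not tested.

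Of 15 microglia and macrophage markers 0 were called and 2 had an unadjusted p under 0.05, with a median of 0.18 and summed intensities of 1651 to 3264 after MCAO and 1503 to 2161 after sham. Positive folds were seen in 12 of the 15 (51.8% of all genes), up to log2 1.23, and 2 were without overlap, higher (5.74% of all genes). Aif1, a defining microglial gene named outside the rule, had log2 intensities of 4.70 to 5.00 on all 6 arrays, at or under the floor. Mean log2 levels of the list lay above the floor, at 6.27, 6.78 and 6.33 on MCAO arrays 1 to 3. Sham arrays 1 to 3 had 6.17, 6.27 and 6.38. The part of microglia and macrophages in the results was not tested. Neutrophil and monocyte markers had 0 of 12 called and 1 at an unadjusted p under 0.05 (summed 710 to 1052 and 705 to 763). Endothelial markers had 0 of 13 and 1 (1418 to 1956 and 1163 to 1875), and neuronal markers 0 of 15 and 1 (5176 to 6735 and 6667 to 8687). Of 9 pericyte and smooth muscle markers 1, Tagln, was called, 3 had an unadjusted p under 0.05 and 4 were without overlap (5.74% of all genes), with a median of 0.42 and summed intensities of 3072 to 7714 after MCAO and 3923 to 6472 after sham. The part of these cells in the results on Tagln and the actin genes was not tested. Of 9 neuroblast and progenitor markers Nes was called. T and NK cell markers had 0 of 8 called and 0 at an unadjusted p under 0.05, fibroblast markers 0 of 11 and 1 each way, and ependymal markers 0 of 9 and 1.

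The same surgery at 1 day and 7 days, each with its own sham group (5 MCAO and 4 sham arrays, and 3 of each), places the 3-day values in time. At 1 day 1021 genes were called higher (6.49%) and 970 lower (6.17%), and at 7 days 4 higher (0.0254%) and 0 lower. Of the 96 genes higher at 3 days 58 were also higher at 1 day (60.4% of the 3-day rises and 5.68% of the 1-day rises), 0 were lower, and 1, Serpina3n, was higher at 7 days. Of the 10 falls 7 were also lower at 1 day. Groups differ in size, and so does the number of calls that they allow.

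Reactive genes had their larger folds at 1 day when all 3-day arrays were used. Lcn2 had log2 folds of 7.83, 4.68 and 2.25 at 1, 3 and 7 days, Tgm1 5.79, 4.29 and 3.82, and S100a10 5.33, 3.66 and 2.82. The difference of effects between 3 and 1 day was not called for any of them (limma, adjusted p = 0.553, 1 and 0.791). Medians of MCAO-type genes were 5.10, 2.48 and 2.09, and those of pan-reactive genes 3.69, 2.09 and 2.14. Without array 3 of both groups the 3-day folds of Lcn2, Tgm1 and S100a10 were 6.71, 6.32 and 5.03. That of Tgm1 then lay above its 1-day fold. The 3-day medians of the MCAO-type and pan-reactive lists were 3.86 and 3.26 on the same arrays.

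Mitosis genes had their larger folds at 3 days. Their median was -0.06 at 1 day, 1.18 at 3 days and 0.55 at 7 days, and 1 of 64 was called higher at 1 day against 14 at 3 days. Spc25 had 0.09, 2.39 and 0.91, Hmmr 0.0013, 2.26 and 1.04, and Cdk1 -0.06, 2.12 and 1.06 at 1, 3 and 7 days. The difference between 3 and 1 day had an adjusted p of 0.0733 for Spc25 and Hmmr and 0.354 for Cdk1, so it did not pass the threshold.

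Across all genes the 3-day effect differed from the 1-day effect in 1 gene (0.00636%). Hmox1, which encodes the haem-degrading enzyme haem oxygenase-1, had log2 folds of 3.80 at 1 day, 1.12 at 3 days and -0.09 at 7 days, a difference of -2.67 ± 0.44 between 3 and 1 day (limma, adjusted p = 0.0249). On the 3-day arrays it had 7.10, 8.73 and 7.23 after MCAO and 6.23, 6.48 and 6.98 after sham (adjusted p = 0.139), without overlap. Unadjusted, 942 genes (5.99%) had p under 0.05 for this difference. The call was lost without sham array 2 (-2.72, adjusted p = 0.0893) and without MCAO array 1 (-2.38, adjusted p = 0.0986). For 7 against 3 days limma called 0 genes and 274 (1.74%) had an unadjusted p under 0.05.

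**Figure D5:**
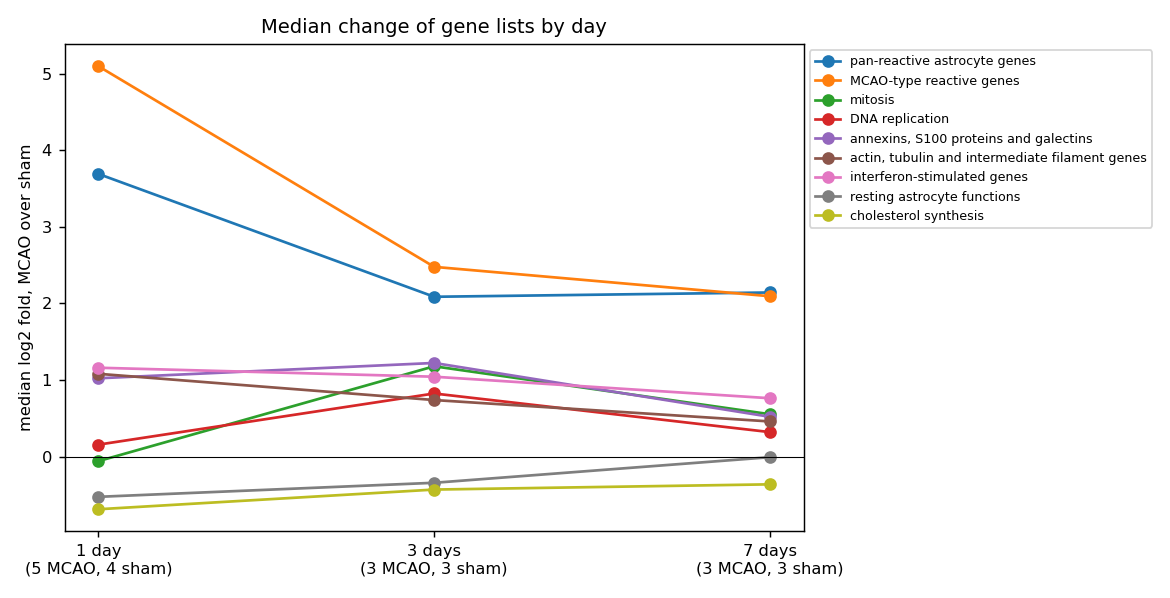
Median log2 fold of MCAO over sham for 9 gene lists at 1, 3 and 7 days after surgery, each day against its own sham group; lines join medians and carry no error. The MCAO-type list goes from 5.10 to 2.48 and 2.09, and mitosis from -0.06 to 1.18 and 0.55.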

How the data were processed

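Sorted astrocytes were profiled on 30 Affymetrix arrays, grouped by the day and surgery in the labels. The authors deposited linear intensities, 1 value for each probe set on each array, from RMA (no version stated), per the submitters' processing notes. Background correction and summarisation of probes were thus done upstream, scanner files were not analysed here, and the number of arrays limits the precision.

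All values were turned to log2. GEO's platform annotation gave 1 gene symbol to 34945 of 45037 probe sets, several to 932 and none to 9160, and 34741 matched the RefSeq table of GRCm38.p6, which changed 0 symbols. Each of 18193 genes was represented by its brightest probe set on average over the 30 arrays. Tested were the 15726 genes that reached log2 5 (an intensity of 32) on 3 or more arrays. A gene bright only in the 3 MCAO arrays could pass this filter.

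Tests used limma 3.58.1 in R 4.3.3 with 1 model over 8 groups (22 residual and 4.55 prior degrees of freedom), 2-sided, with Benjamini-Hochberg adjustment over all genes. Differences of the MCAO effect between days were contrasts in the same model. SE is that of the fit, and n is 3 arrays per group. For some genes, among them Lcn2, Tgm1 and Cd109, this SE is smaller than the scatter of the 3 arrays per group would give. For others, such as Sec16b, it is larger. The fit was also run on simulated data with independent noise on each array. These data held no shared shift of array 3, so that run cannot speak for this feature of the real arrays. Samples, gene lists and the rule for named genes were chosen with earlier results of these data known. The rule took the 20 largest rises and 10 largest falls without overlap, Gfap, Vim, Lcn2, Serpina3n and Aldh1l1, and up to 5 called members of each of 26 programme and 13 marker lists, or the 2 largest folds where none was called. The lists hold 760 genes, of which 691 were tested. Promoters came from RefSeq for 12562 tested genes.

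Replicate numbers were checked for pairing through deviations from the group means. Between MCAO and sham these correlated at 0.185, 0.0274 and 0.208 for numbers 1 to 3, and at -0.209 to 0.127 for unlike numbers. The labels do not say that the number marks a shared day or animal, so arrays were not taken as pairs. Other settings tried were median centring and quantile normalisation, 2 other filters, 2 other probe set rules, a pseudocount of 16 before log2, trended variances, array weights, the 6 or the surgery arrays alone, the replicate number as a block, arrays 1 and 2 alone and each array left out. LPS array 5 left out, the share of bright genes as a covariate and array 3 alone were added after seeing the data.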

Additional observations from a re-analysis of the deposited data

Results flagged for a closer look

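Hmox1 was singled out because its response to MCAO differed between 3 days and 1 day by a test of the difference itself. The 3-day log2 fold minus the 1-day log2 fold was -2.67 ± 0.44 (SE; limma, adjusted p = 0.0249). At 1 day the MCAO mean was 10.27 and the sham mean 6.47, and at 7 days 6.42 and 6.51. Groups of 3 arrays are too small for the search for single outlying samples that was used.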

How the results depend on the processing

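The median log2 fold over all genes stayed between -0.01 and 0.05 under all settings run, so no scaling shifted it by over 0.1. The count of 106 called genes (96 higher, 10 lower) was 0 with the 6 arrays alone, 0 with the replicate block on these 6 arrays, 0 with array 3 alone (1 against 1), 654 (366 and 288) with the surgery arrays alone, 1937 (1130 and 807) with array weights, 632 (483 and 149) with arrays 1 and 2 alone, 223 (165 and 58) without LPS array 5, and 12 at an adjusted p under 0.01. Lower calls were 20 with the mean of a gene's probe sets and 22 with the bright-gene covariate. With the replicate block in the model over 30 arrays 98 genes were called, 94 of the 106 among them. Whether the replicate numbers mark paired samples is not given by the labels. Leaving out 1 array gave 3 to 650 calls, 3 to 381 higher and 0 to 269 lower. The share of higher calls fell from 96 of 106 to 56.0% with the surgery arrays alone, 58.3% with array weights, 76.4% with arrays 1 and 2 alone and 74.0% without LPS array 5. Under the other settings the count of all calls stayed within 1.5 times 106, and the cause of the moves was not tested.

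Genes whose 3-day effect differed from the 1-day effect numbered 1, and 5 with quantile normalisation, median centring or the pseudocount, 16 with mean probe sets, 49 with the surgery arrays alone, 259 with array weights, 3 with the replicate block over 30 arrays, 64 with arrays 1 and 2 alone, 64 with array 3 alone, 13 without LPS array 5 and 4 with the bright-gene covariate; leaving out 1 array gave 0 to 27. For 7 against 3 days the count of 0 became 1 with the surgery arrays alone, 222 with array weights and 10 with arrays 1 and 2 alone, and leaving out 1 array gave 0 to 5.

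Among the genes named by the rule, directions turned in array 3 alone for Vim (-0.13), Serpina3n (-0.11), Aldh1l1 (-0.23), Tm4sf1 (-0.084), Cd109 (-0.70), Clcf1 (-0.34), Ccnd1 (-0.72), Cdt1 (-0.64), Cdk1 (-0.46), Tubb6 (-0.25), Tagln2 (-0.36), Cxcl2 (-0.88), Ndrg1 (-0.58), Adm (-0.78), Thbs2 (-0.26), Igfbp3 (-0.54), Cldn11 (-0.58), Mal (-0.79), Pdgfra (-0.87), Lhfpl3 (-0.25), Stmn2 (-0.59), Nes (-0.044) and Vwf (-0.15), and the difference was 0 for Rrm2. Other called genes turned too, among them Birc5 (-0.29), Fignl1 (-0.10), Hmga2 (-0.070) and Shcbp1 (-0.025). Of the 96 genes called higher 79 had a positive difference in array 3. Masp1 turned to 0.20 without shared probe sets and Aldh1l1 to -0.14 with mean probe sets. With arrays 1 and 2 alone Ptprc turned to 0.076, Lyz2 to 0.44 and Gzmb to 0.018, and with array weights Lyz2 turned to 0.39. Leaving out 1 array gave ranges that cross 0 for Aldh1l1 (-0.092 to 0.27), Lyz2 (-1.01 to 0.19), Cd8a (-0.083 to 1.03), Gzmb (-0.40 to 0.0064), Igf2 (-1.72 to 0.053) and Alas2 (-0.23 to 0.0061). Precision is limited by 3 arrays per group, and genes near the log2 floor of 5 lie close to background.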
